A study of Mus musculus with 6 samples.

Results

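The p53 target genes described here are 35 mouse genes listed as targets of the transcription factor p53. They were taken from a list of symbols, with the brightest probe set named for that gene alone. Whether p53 switches on each of them in mouse cells was not tested. All 35 were measured, out of 12393 genes with a probe set of their own. Biotinylated RNA was measured on 6 Affymetrix mouse expression arrays, 3 of 344SQ cells that inducibly express the microRNA miR-34a (miR-34a 1 to 3), and 3 of 344SQ cells with a control vector (vector 1 to 3). 344SQ is a metastatic mouse lung cancer line with high Zeb1. Its p53 is mutant, so the 344SQ cells of both groups share this defect and miR-34a was supplied in them without active p53. Any host cells in the samples need not share the defect, and their part in the p53 target values was not tested. The agent that induces miR-34a, the age and strain of the host mice and the number of cell clones are not given in the labels used here. The labels do not settle whether the RNA came from tumours or from culture. The design text names tumours of injected mice, the miR-34a titles name tumours, and the other fields name the cell line. Macrophage marker transcripts were read on all 6 arrays, with C1qa at 4899 to 5606 in miR-34a and 1809 to 4093 in vector samples. Csf1r ran from 2696 to 3246 and from 1847 to 2897, while Itgam was dim, at 105.7 to 152.2 in vector samples. The values are therefore read as those of bulk samples, to which cells other than 344SQ may contribute. Neither p53's own transcript (Trp53) nor the precursor RNA of miR-34a could be checked, as no probe set carried either name alone, and the array does not read mature microRNAs.

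p53 is stabilised by DNA damage and oncogenic stress and then activates genes that halt division, repair DNA, limit growth signals or start apoptosis. Its target Mdm2 encodes the ubiquitin ligase that destroys p53, which closes a feedback loop, and Mdm4 encodes a partner of Mdm2. The gene for miR-34a is itself a direct p53 target, so in normal cells the microRNA and other p53 targets can be induced side by side. In lung adenocarcinoma p53 is often mutated, and many of its targets also answer to other inputs, such as FoxO factors, growth factor signals and interferon.

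The mature microRNA supplied in these cells is printed with its seed, bases 2 to 8 from the 5′ end, in capitals, since the seed pairs with target transcripts. The sequence is RefSeq's, at chr4:150068473-150068494 on the plus strand of GRCm38.p6.
mmu-miR-34a-5p: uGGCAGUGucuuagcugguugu

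Promoters of the target genes were read for the p53 consensus decamer, the repeat unit of a p53 response element, because it is the sequence feature that the choice of genes would lead one to look for. The windows run from 250 bases before to 50 after each annotated start (RefSeq, GRCm38.p6), and the decamer reads as itself on both strands. Of the 35 genes, 28 had a window, and 10 of these (35.7%) held at least 1 decamer, against 850 of 9887 tested genes with a window (8.60%). The genes were chosen as p53 targets, so this difference describes the choice. Each decamer is shown in capitals with 10 bases on either side, 5′ to 3′ on the strand of the gene.
Gadd45a, chr6:67037428-67037457, minus strand: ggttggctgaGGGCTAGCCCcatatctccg
Aen, chr7:78895927-78895956, plus strand: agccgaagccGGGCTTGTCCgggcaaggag
Ei24, chr9:36797325-36797354, minus strand: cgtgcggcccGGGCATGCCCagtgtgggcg
Pml, chr9:58249911-58249940, minus strand: cccgcatgccGGGCTTGTTTacttgcttgt
Sesn1, chr10:41887256-41887285, plus strand: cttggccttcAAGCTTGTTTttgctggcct
Mdm2, chr10:117710925-117710954, minus strand: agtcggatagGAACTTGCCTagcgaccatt
Ccng1, chr11:40755452-40755481, minus strand: agacctgcccGGGCAAGCCTtggcactgaa
Polk, chr13:96519399-96519428, minus strand: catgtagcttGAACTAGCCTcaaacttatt
Gtse1, chr15:85859945-85859974, plus strand: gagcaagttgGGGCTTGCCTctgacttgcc
Cdkn1a, first, chr17:29090896-29090925, plus strand: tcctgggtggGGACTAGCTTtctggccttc
Cdkn1a, second, chr17:29090918-29090947, plus strand: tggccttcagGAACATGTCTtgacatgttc

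Cdkn1a held 2 decamers, and each of the other 9 genes had 1. The best known p53 sites of Gadd45a and Mdm2 lie in introns, outside these windows. The 10 genes with a decamer had log2 changes, miR-34a minus vector, from -1.09 to 0.35 with a median of -0.10 and 4 above 0. The 18 without one ran from -0.28 to 0.96 with a median of 0.084 and 12 above 0. The ranges of both sets overlap. A match shows that these letters are present, not that p53 binds.

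The window of Gadd45a, the only member called lower on its brightest probe set with all 6 arrays, is given whole, with its decamer in capitals (chr6:67037358-67037657, minus strand).
Gadd45a promoter: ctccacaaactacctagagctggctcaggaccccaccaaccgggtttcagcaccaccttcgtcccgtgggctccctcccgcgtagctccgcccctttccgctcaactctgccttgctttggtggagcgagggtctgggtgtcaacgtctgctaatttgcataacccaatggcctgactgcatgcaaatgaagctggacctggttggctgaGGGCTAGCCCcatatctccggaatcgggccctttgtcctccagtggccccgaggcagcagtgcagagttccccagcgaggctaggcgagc

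The p53 target genes did not move as a block between miR-34a and vector samples. Of the 35 genes, 1 was higher in miR-34a samples, the DNA repair gene Xpc, 1.37-fold, and 1 was lower, the stress response gene Gadd45a, 2.13-fold. The other 33 did not pass on their brightest probe set, among them Cdkn1a, the p21 cell cycle inhibitor, and Mdm2. The test was limma on log2(intensity + 16), with Benjamini-Hochberg adjustment over all 12393 genes at 0.05. The shares of members called, 2.86% higher and 2.86% lower, stand beside 6.50% higher and 5.25% lower among all genes tested. Groups did not overlap in 7 of the 35 genes (20.0%), with 6 above and 1 below, against 34.9% of all genes (20.8% above and 14.0% below). Changes were above 0 in 21 of the 35 genes, against 54.3% of all genes. The members' median log2 change was 0.081, against 0.024 over all genes, and 19 of the 35 (54.3%) had a change under 0.2 in either direction, against 60.1% of all genes. At an unadjusted p under 0.05 there were 9 of the 35 genes (25.7%), against 28.2% of all genes, and the counts by role at that p are read against this share. The members had 22 further, dimmer probe sets, fitted over all probe sets and described below. Of these, 4 passed as lower (18.2%, against 7.18% of all probe sets), of Mdm2, Ccng2, Ccng1 and Aen. A further Ddb2 probe set, 1 of the 22, passed as higher (4.55%, against 6.47%).

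The counts rest on few arrays. With 1 array left out in turn, the call of Xpc was kept in 2 of 6 fits (without vector 1 and without vector 2), with changes from 0.43 to 0.49 and adjusted p from 0.0157 to 0.0858. That of Gadd45a was kept in 1 of 6 (without vector 1), with changes from -1.30 to -0.82 and adjusted p from 0.00747 to 0.128. Each of these fits has fewer samples than the full one. The labels do not say whether the replicates are separate animals or cultures. The p-values therefore speak of the variation among these 6 arrays alone, part of which may be technical.

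**Figure D1:**
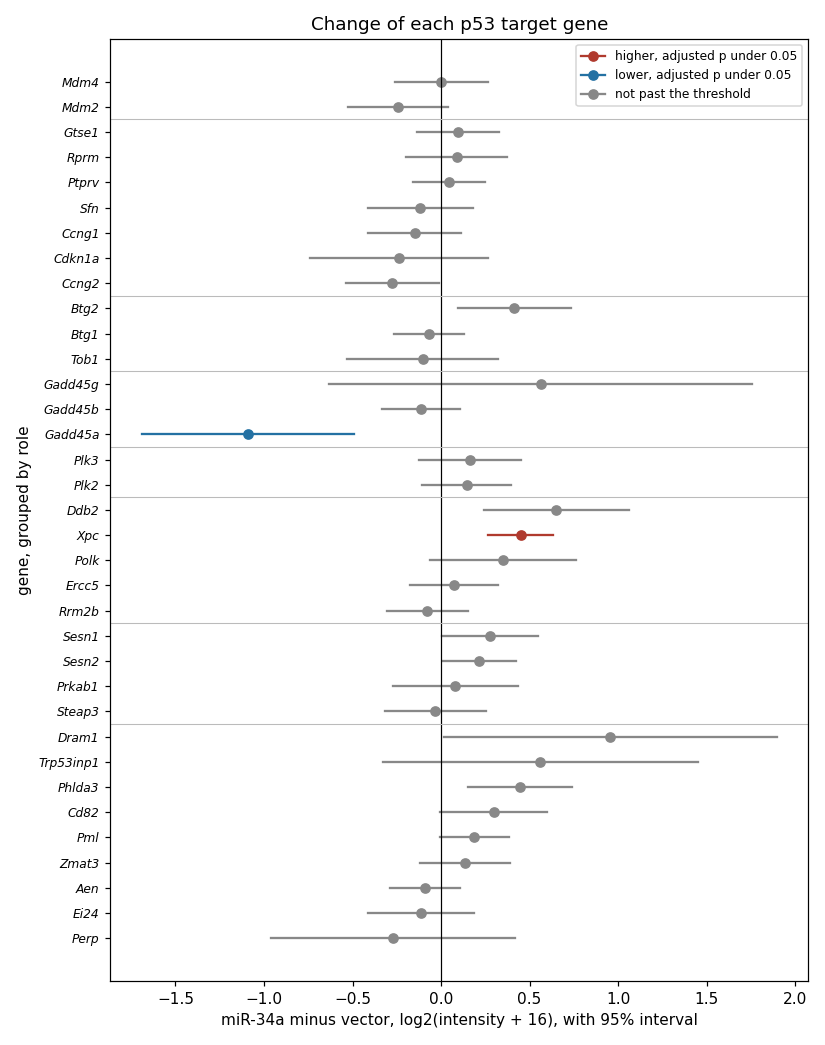
Log2 change of each of the 35 p53 target genes (points, miR-34a minus vector, log2(intensity + 16)) with its 95% interval from limma (lines), grouped by role from top to bottom. Xpc at 0.45 and Gadd45a at -1.09 are the coloured genes past the threshold, and the grey genes did not pass on their brightest probe set.

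Vector 1 stood apart from the other arrays, at 43.33 on the first principal component of all genes (61.0% of the variance), with vector 2 and vector 3 at 5.42 and 8.75 and the miR-34a arrays at -21.66 to -16.25. Array medians lay between 466.7 and 484.2. Among the markers of the labelled lung epithelial origin, Krt18, Krt8 and Cdh1 were bright, with mean intensities of 23655, 21437 and 13084, while Epcam averaged 973.2 and Rab25 189.2. Summed fibroblast and matrix markers (20 genes) ran from 81836 to 107667 in miR-34a and from 36089 to 84870 in vector arrays, with vector 1 lowest. Summed macrophage markers (20 genes) ran from 36622 to 41821 in miR-34a and from 19157 to 33905 in vector arrays, again with vector 1 lowest. Neutrophil markers (10 genes) ran from 3657 to 4194 and from 5077 to 11844, with vector 1 highest. T and natural killer cell markers (18 genes) summed to 6971 to 7264 and 6385 to 6733, and epithelial ones (22 genes) to 86693 to 92492 and 81988 to 99106. In these 5 lists, genes called higher and lower numbered 4 and 0 for fibroblast and matrix, 3 and 1 for macrophage, 0 and 1 for neutrophil, 1 and 0 for T and natural killer cell and 1 and 0 for epithelial markers. Of 10 mast cell markers 4 were higher. Among all genes 6.50% passed as higher and 5.25% as lower. Without miR-34a 3, 0 fibroblast and 0 macrophage markers passed as higher, and without vector 1, 4 and 6 did. Fewer cells of a type and less RNA per cell cannot be told apart in bulk samples, and the part of these shifts in the values below was not tested.

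The heat map of the 35 genes by array shows where single arrays carry a difference. Vector 1 differed from the mean of vector 2 and vector 3 by over 0.5 in log2 in 7 of the 35 genes (20.0%), against 11.2% of all genes. It was the low vector array for Gadd45g, Trp53inp1, Dram1 and Gadd45a and the high one for Perp, Cdkn1a and Prkab1. The miR-34a arrays lay closer together for most of these genes.

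**Figure D2:**
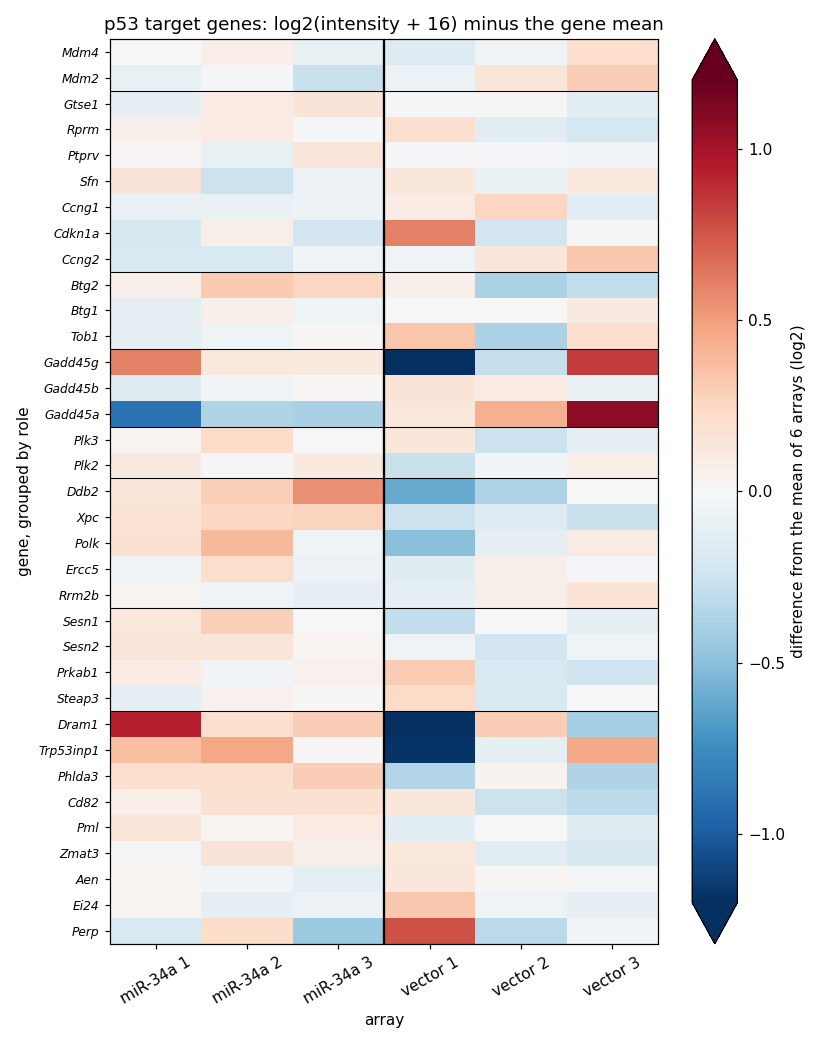
Each cell is log2(intensity + 16) of a gene on 1 array minus the gene's mean over the 6 arrays, with miR-34a arrays left of the line and vector arrays right of it, and genes grouped by role. Vector 1 is dark blue for Gadd45g, Dram1 and Trp53inp1 and red for Perp and Cdkn1a, while Xpc is evenly pale red in the miR-34a arrays and pale blue in the vector arrays.

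The p53 feedback genes were Mdm2 and Mdm4. On its brightest probe set, Mdm2 had intensities of 1186, 1247 and 1044 in miR-34a samples, against 1197, 1397 and 1544 in vector samples. The groups overlapped, with vector 1 inside the miR-34a range. The log2 means were 10.19 ± 0.131 in miR-34a and 10.44 ± 0.183 in vector samples (SD, n = 3 each), a change of -0.24 ± 0.120 (SE; 95% interval -0.53 to 0.038; adjusted p = 0.235). A dimmer Mdm2 probe set, described below, had groups that did not overlap. It changed by -0.75 and passed as lower (limma over all probe sets, adjusted p = 0.0194). Mdm4, whose product binds p53 and blocks its activation domain, read 651.5, 685.4 and 608.9 in miR-34a samples, against 579.3, 627.3 and 744.7 in vector samples. All 3 miR-34a values lay inside the vector range. Its change was 0.0020 ± 0.111 (SE; 95% interval -0.26 to 0.26; adjusted p = 0.994).

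**Figure D3:**
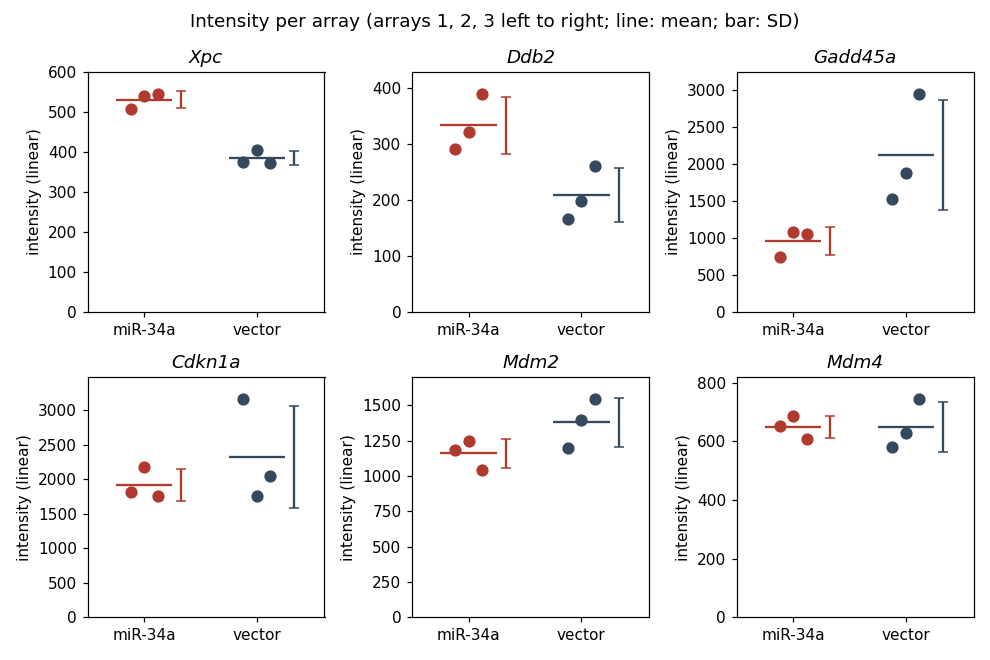
Linear intensity of 6 p53 target genes on each array (points, arrays 1 to 3 from left to right), with the group mean (line) and SD (bar), miR-34a left and vector right; each axis starts at 0. On the brightest probe set shown, the groups are apart for Xpc, Ddb2 and Gadd45a and overlap for Cdkn1a, Mdm2 and Mdm4.

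Of the 7 cell cycle brakes and regulators, 0 passed in limma on their brightest probe set. At an unadjusted p under 0.05, 0 were higher and 1, Ccng2, was lower. Cdkn1a, which encodes p21, the inhibitor of cyclin-dependent kinases that carries out much of the p53 arrest, had intensities of 1808, 2176 and 1763 in miR-34a samples, against 3161, 1759 and 2042 in vector samples. Vector 1 was the high array, and vector 2 was below all 3 miR-34a arrays. The log2 means were 10.91 ± 0.165 in miR-34a and 11.14 ± 0.436 in vector samples (SD, n = 3 each), a change of -0.24 ± 0.214 (SE; 95% interval -0.74 to 0.27; adjusted p = 0.526). Without vector 1 the change was 0.0086 (adjusted p = 0.972).

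Ccng2 encodes cyclin G2, an unconventional cyclin that slows division and is also a FoxO target. It ran from 3135 to 3464 in miR-34a samples and from 3454 to 4461 in vector samples, with a change of -0.28 ± 0.111 (SE; adjusted p = 0.158). The highest miR-34a array lay just above vector 1, the lowest vector array. Without vector 1 the change was -0.37 and passed (adjusted p = 0.0391). Ccng1, encoding cyclin G1, which regulates Mdm2 through a phosphatase, ran from 2141 to 2185 in miR-34a and from 2074 to 2728 in vector samples, with a change of -0.15 ± 0.110 (adjusted p = 0.430). A dimmer probe set of Ccng2 at -1.16 and one of Ccng1 at -0.57 passed as lower in the fit over probe sets, described below. Sfn, encoding an epithelial 14-3-3 protein that holds cell cycle kinases in the cytoplasm, had a change of -0.12 ± 0.125 (adjusted p = 0.599). Rprm, whose product Reprimo arrests cells before mitosis, was the dimmest of the 35 genes, at 115.4 to 127.4 in miR-34a and 100.1 to 138.4 in vector samples, and had a change of 0.088 (adjusted p = 0.691). Ptprv, a receptor-type phosphatase gene, had a change of 0.044 ± 0.0862 (adjusted p = 0.787).

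Gtse1 encodes a microtubule-binding protein of dividing cells that also restrains p53. It read 912.8 to 1099 in miR-34a samples and 893.6 to 994.5 in vector samples, a change of 0.096 ± 0.0984 (SE; adjusted p = 0.580). Of 39 measured genes of a cell division list, 35 passed as lower and 0 as higher in limma (0 higher at an unadjusted p under 0.05), with a median of -0.69. The spindle checkpoint kinase gene Ttk changed by -1.22, the kinetochore gene Cenpf by -1.34, the checkpoint gene Mad2l1 by -1.45 and the mitotic ubiquitin-conjugating enzyme gene Ube2c by -1.03. Leaving out miR-34a 1 left 19 lower genes in that list and leaving out miR-34a 3 left 15, with 25 to 35 under the other alternatives. Gtse1 is not in that list, and whether its change differs from those of the list was not tested.

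Of the antiproliferative BTG and TOB genes, whose products recruit the deadenylase that shortens messenger RNA tails, 0 of 3 passed, and 1, Btg2, was higher at an unadjusted p under 0.05. Btg2 had intensities of 785.7, 935.0 and 892.1 in miR-34a samples, against 783.8, 572.6 and 607.4 in vector samples. The groups did not overlap, with the lowest miR-34a array and vector 1 nearly level. Its change was 0.41 ± 0.135 (SE; adjusted p = 0.0957), and without vector 1 it was 0.55 and passed (adjusted p = 0.0110). Btg1, the brightest of the 35 genes at 10781 to 12157 in miR-34a and 11584 to 12540 in vector samples, had a change of -0.066 ± 0.0840 (adjusted p = 0.662). Tob1 had a change of -0.10 ± 0.181 (adjusted p = 0.763), with vector arrays spread from 2713 to 4459 around miR-34a arrays at 3258 to 3570.

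The GADD45 genes encode small stress proteins that bind cell cycle kinases and stress kinases. Of the 3, Gadd45a passed as lower and the other genes did not pass. Gadd45a had intensities of 748.5, 1082 and 1061 in miR-34a samples, against 1529, 1882 and 2956 in vector samples. Every miR-34a array lay below every vector array, and vector 3 was the highest. The log2 means were 9.92 ± 0.294 in miR-34a and 11.01 ± 0.483 in vector samples (SD, n = 3 each), a change of -1.09 ± 0.254 (SE; 95% interval -1.69 to -0.49; adjusted p = 0.0372). This change lies at the 0.6 percentile of all genes tested.

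Gadd45b, which responds to inflammatory signals, ran from 1184 to 1325 in miR-34a samples and from 1243 to 1460 in vector samples, a change of -0.11 ± 0.0937 (SE; adjusted p = 0.486). Gadd45g had intensities of 837.5, 594.9 and 590.3 in miR-34a samples, against 195.2, 446.9 and 987.7 in vector samples. The vector arrays spanned the whole miR-34a range, and the change of 0.56 ± 0.507 (adjusted p = 0.523) was -0.0008 without vector 1. Whether the 3 genes differ from each other in their change was not tested.

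The 2 Polo-like kinase genes, stress-responsive relatives of the mitotic kinase Plk1, both had values above 0 and did not pass. Plk2 had a change of 0.14 ± 0.107 (SE; adjusted p = 0.435) and Plk3 one of 0.16 ± 0.122 (adjusted p = 0.438), with 0 of 2 at an unadjusted p under 0.05. Without vector 1 the values were 0.048 for Plk2 and 0.27 for Plk3.

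Among the 5 genes of DNA repair and nucleotide supply, 1 passed as higher and 0 as lower, and 2 were higher and 0 lower at an unadjusted p under 0.05. Changes were above 0 in 4 of the 5, against 54.3% of all genes. Among these 4, Ercc5 was below 0 with median centring and reached -0.017 with 1 array left out. Xpc, whose product finds bulky DNA lesions in nucleotide excision repair, had intensities of 506.6, 539.7 and 545.8 in miR-34a samples, against 375.4, 405.0 and 373.0 in vector samples. The groups were well apart and each was tight. The log2 means were 9.09 ± 0.0563 in miR-34a and 8.64 ± 0.0635 in vector samples (SD, n = 3 each), a change of 0.45 ± 0.0786 (SE; 95% interval 0.26 to 0.63; adjusted p = 0.0170). Ddb2, which encodes the damage sensor that hands ultraviolet lesions to the Xpc protein, had 290.3, 320.9 and 389.8 in miR-34a samples, against 166.6, 197.8 and 260.8 in vector samples. All miR-34a arrays lay above all vector arrays, with a wider spread than for Xpc. Its change of 0.65 ± 0.173 (SE; 95% interval 0.24 to 1.06) did not pass (adjusted p = 0.0547), and it passed without vector 3 (0.81; adjusted p = 0.0417).

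Polk, encoding a polymerase that copies past damaged bases, ran from 860.1 to 1170 in miR-34a samples and from 625.5 to 950.9 in vector samples, with a change of 0.35 ± 0.175 (SE; adjusted p = 0.244). It was 0.19 without vector 1, and a dimmer Polk probe set had a change of -0.16. Ercc5, the gene of an excision repair nuclease, had a change of 0.072 ± 0.106 (adjusted p = 0.711). Rrm2b, which encodes the p53-induced subunit of ribonucleotide reductase, had a change of -0.078 ± 0.0976 (adjusted p = 0.657).

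The 4 metabolic and redox genes did not pass, and 2 were higher at an unadjusted p under 0.05. Both sestrin genes, whose products restrain the growth kinase mTORC1 under stress, were among these. Sesn2 had 687.9, 690.1 and 634.9 in miR-34a samples, against 602.1, 528.8 and 598.9 in vector samples. The groups did not overlap, and the change was 0.21 ± 0.0875 (SE; adjusted p = 0.161). Sesn1 ran from 630.7 to 775.6 in miR-34a and from 511.4 to 634.0 in vector samples, with a change of 0.27 ± 0.115 (adjusted p = 0.171). Prkab1, the gene of a regulatory subunit of the energy sensor AMPK, had a change of 0.081 ± 0.150 (adjusted p = 0.774), and of 0.25 without vector 1. Steap3, encoding an iron reductase of endosomes, had a change of -0.032 ± 0.120 (adjusted p = 0.896).

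The 9 genes of apoptosis, autophagy and membrane proteins also had 0 calls in limma on their brightest probe set, with 2 higher and 0 lower at an unadjusted p under 0.05. Phlda3, which encodes a competitor of the survival kinase AKT at the membrane, had 2009, 2009 and 2158 in miR-34a samples, against 1375, 1816 and 1366 in vector samples. The groups did not overlap, with vector 2 closest to the miR-34a arrays. Its change was 0.45 ± 0.125 (SE; adjusted p = 0.0627), and it passed without vector 2 (0.58; adjusted p = 0.0205). Dram1, a lysosomal membrane protein gene that promotes autophagy, had 1485, 890.8 and 953.1 in miR-34a samples, against 297.5, 952.5 and 579.4 in vector samples. Vector 2 lay inside the miR-34a range, and the change of 0.96 ± 0.399 (SE; 95% interval 0.016 to 1.90; adjusted p = 0.170) was 0.53 without vector 1.

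Trp53inp1, which encodes a nuclear stress protein of autophagy and cell death, had 2187, 2344 and 1716 in miR-34a samples, against 741.7, 1563 and 2327 in vector samples. The vector arrays differed over 3-fold among themselves, and the change was 0.56 ± 0.378 (SE; adjusted p = 0.386), or 0.11 without vector 1. Cd82, a tetraspanin gene that restrains cell motility, ran from 3285 to 3519 in miR-34a and from 2484 to 3399 in vector samples. Its change was 0.30 ± 0.129 (adjusted p = 0.187), and it passed without vector 1 (0.44; adjusted p = 0.0138). Pml, the organiser of nuclear bodies and also an interferon-induced gene, ran from 594.6 to 643.0 in miR-34a and from 521.8 to 581.0 in vector samples, which did not overlap, with a change of 0.19 ± 0.0822 (adjusted p = 0.189).

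Perp, a tetraspan membrane protein gene of desmosomes and apoptosis, had 2040, 2704 and 1697 in miR-34a samples, against 3955, 1851 and 2262 in vector samples. Vector 1 alone was high, and the change of -0.27 ± 0.293 (SE; adjusted p = 0.599) was 0.043 without it. The RNA-binding zinc finger gene Zmat3 had a change of 0.14 ± 0.107 (adjusted p = 0.463). The endoplasmic reticulum protein gene Ei24 had a change of -0.11 ± 0.127 (adjusted p = 0.619) and the apoptosis-enhancing nuclease gene Aen one of -0.090 ± 0.0836 (adjusted p = 0.538). A dimmer Aen probe set at -0.66 passed as lower in the fit over probe sets, described below, while another had a change of 0.032.

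Leaving out vector 1 moved the counts of members called to 3 higher (Xpc, Btg2 and Cd82) and 2 lower (Gadd45a and Ccng2), shares that stand beside 10.1% and 7.15% of all genes in the same fit. The changes of Gadd45g, Trp53inp1 and Dram1 moved to -0.0008, 0.11 and 0.53, and that of Gadd45a to -1.30. The fibroblast and macrophage markers, low on the same array, were given above, and their part in these shifts was not tested.

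**Figure D4:**
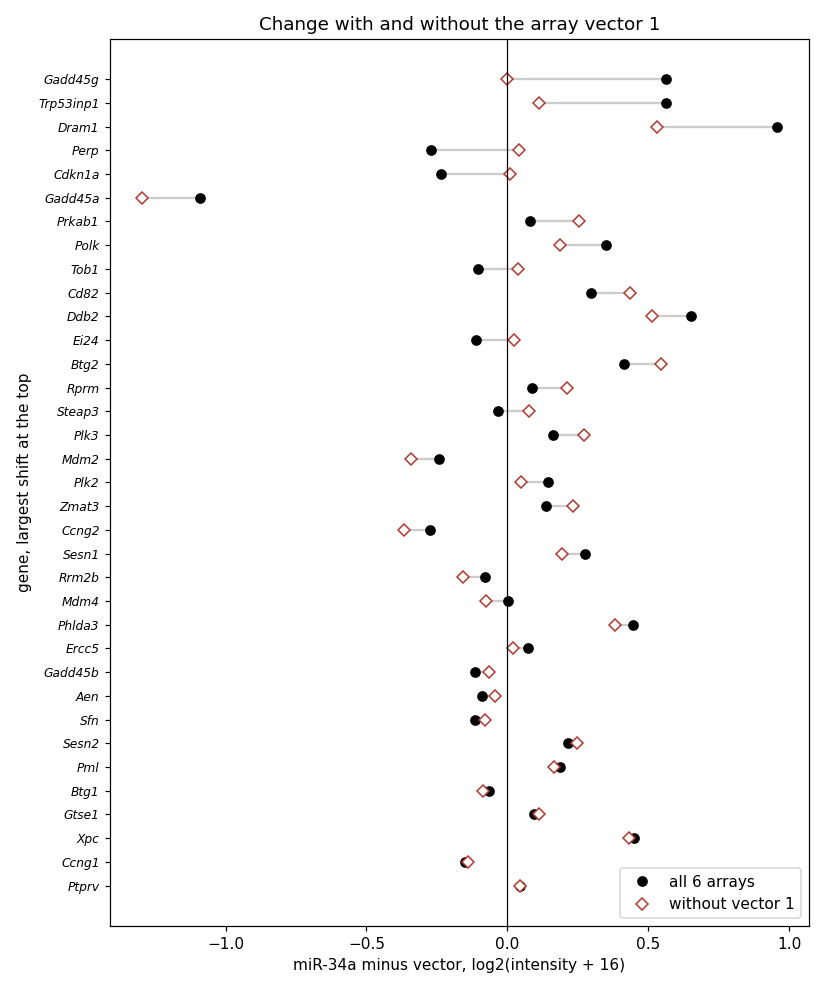
Log2 change (miR-34a minus vector) of each p53 target gene with all 6 arrays (black points) and without vector 1 (open diamonds), with the largest shifts at the top. Gadd45g goes to -0.0008 and Cdkn1a to 0.0086, Gadd45a goes further below 0 to -1.30, and Xpc stays at 0.43.

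The values above use the brightest probe set of each gene, and 17 of the 35 genes had several, 39 in all. Fitted over all 20380 named probe sets, 5 of the 22 further probe sets passed, 1 higher (4.55%) and 4 lower (18.2%), where 6.47% of all probe sets passed as higher and 7.18% as lower. The probe sets of 8 genes had changes of opposite sign, and 19 of the 39 changes were above 0, against 50.7% of all probe sets. With the brightest first, these were Trp53inp1 (0.56 and -0.23), Polk (0.35 and -0.16), Cd82 (0.30 and -0.050) and Prkab1 (0.081 and -0.50). Gadd45b (-0.11, 0.19 and 0.39), Steap3 (-0.032, 0.17 and 0.056), Mdm4 (0.0020 and -0.14) and Aen (-0.090, -0.66 and 0.032) were the others. The groups of the further Prkab1 probe set did not overlap (adjusted p = 0.0962). What sets the probe sets of a gene apart was not tested.

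The 4 lower probe sets belonged to Mdm2, Ccng2, Ccng1 and Aen, none of which passed on its brightest probe set. The dimmer Mdm2 probe set had 243.8, 282.4 and 233.1 in miR-34a samples, against 364.7, 420.6 and 535.7 in vector samples. These groups did not overlap, and the change was -0.75 ± 0.148 (SE; adjusted p = 0.0194), against -0.24 for the brighter one. The second Ccng2 probe set had 653.9, 712.4 and 879.8 in miR-34a samples, against 1525, 1374 and 2243 in vector samples. Every miR-34a array was below every vector array, with a change of -1.16 ± 0.196 (SE; adjusted p = 0.0121). This call was kept in 5 of 6 fits that left out 1 array, and that of Mdm2 in 4 of 6.

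Ccng1 had 3 probe sets, and one of the further ones ran from 791.4 to 921.0 in miR-34a and from 1124 to 1391 in vector samples, a change of -0.57 ± 0.112 (SE; adjusted p = 0.0183) that was kept in 4 of 6 such fits. The other had a change of -0.46 (adjusted p = 0.0853), and the brightest one of -0.15. Of the 3 Aen probe sets, a dimmer one ran from 232.7 to 271.2 in miR-34a and from 326.2 to 467.2 in vector samples, a change of -0.66 ± 0.138 (adjusted p = 0.0237) kept in 2 of 6 fits, while the other further one had a change of 0.032. The second Cdkn1a probe set had a change of -0.57 ± 0.284 (adjusted p = 0.235), in the direction of the first, and again vector 1 was highest, at 1919.

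The higher one was the second Ddb2 probe set, with 308.6, 296.5 and 400.1 in miR-34a samples, against 154.2, 215.2 and 222.9 in vector samples. The groups did not overlap, and the change was 0.72 ± 0.166 (SE; adjusted p = 0.0307), kept in 2 of 6 fits that left out 1 array. In the same fit over probe sets the brighter Ddb2 probe set also passed (adjusted p = 0.0472). The Btg2 probe sets had changes of 0.41 and 0.39 and the Sesn1 ones changes of 0.017 to 0.41. Gadd45a and Xpc each had 1 probe set, so their calls have no second reading.

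**Figure D5:**
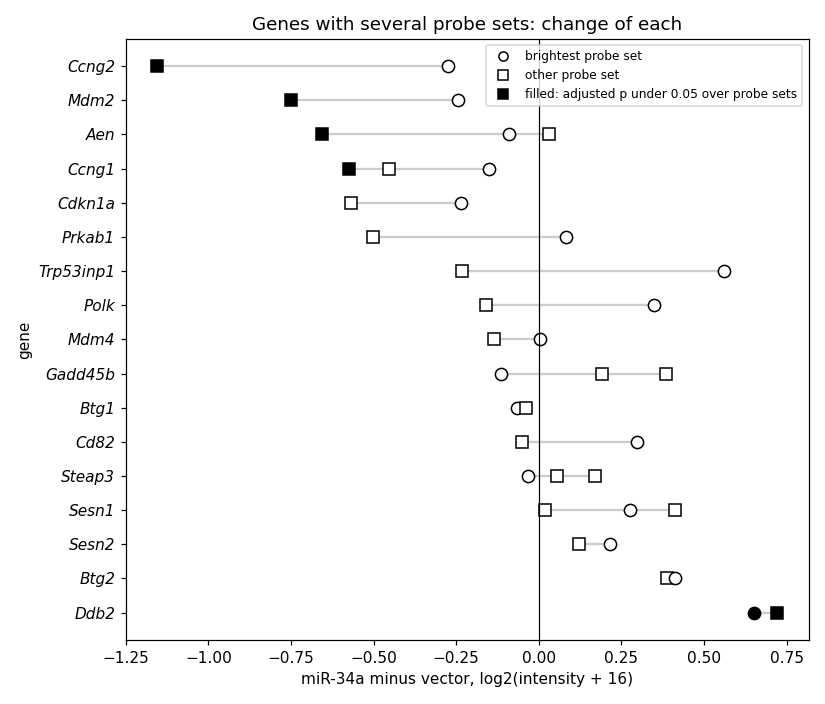
Log2 change (miR-34a minus vector) of every probe set of the 17 p53 target genes with several: circles are the brightest probe set, squares the others, and filled symbols passed an adjusted p of 0.05 over all probe sets. Ccng2, Mdm2, Aen and Ccng1 have a filled square well left of their circle, and both Ddb2 symbols are filled on the right.

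A second list held other p53 target genes, of which 36 of 47 were measured. Of these 1 passed as higher and 6 as lower, with a median of 0.16 and 24 changes above 0. Among all genes 6.50% passed as higher and 5.25% as lower, and 54.3% of changes were above 0. The mitotic spindle gene Ckap2 changed by -0.89 ± 0.104 (SE; adjusted p = 0.00615), the mTORC1 inhibitor gene Ddit4 by -1.14 ± 0.171 (adjusted p = 0.0113) and the apoptotic protease gene Casp8 by -0.73 ± 0.112 (adjusted p = 0.0119). The higher gene was Tsc2, also an mTORC1 inhibitor, at 0.71 ± 0.0874 (adjusted p = 0.00662). The lower genes included the replication clamp gene Pcna, which stands in the cell division list too. Without vector 1, 6 of this list passed as higher and 7 as lower, and lower genes numbered 2, 4 and 1 without miR-34a 1, 2 and 3 and 4 without vector 3.

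Of 29 partners and regulators of p53, 23 were measured, and 3 passed as higher and 1 as lower, with a median of -0.015. These counts stand beside 6.50% higher and 5.25% lower of all genes. The checkpoint kinase gene Chek1, which acts in replication stress, changed by -1.25 ± 0.0912 (SE; adjusted p = 0.00201). Daxx, a chromatin and apoptosis regulator gene that binds Mdm2, changed by 0.44 ± 0.0771 (adjusted p = 0.0170), Cdk5rap3 by 0.70 ± 0.117 (adjusted p = 0.0148) and the mesenchymal transcription factor gene Twist1 by 1.56 ± 0.323 (adjusted p = 0.0264). Cdkn2a had the largest change of this list, 2.785 ± 1.17 (SE), and did not pass (adjusted p = 0.173). It ran from 2739 to 3106 in miR-34a and from 33.58 to 1546 in vector samples. Without vector 1 its change was 1.24 and passed (adjusted p = 0.00514), and 4 of this list passed as higher and 1 as lower. Which transcripts of Cdkn2a this value reads was not tested. Without any one of miR-34a 1, 2 or 3, 0 of this list passed as higher and 1 as lower.

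Lists of genes of other inputs were set beside the p53 targets. Their counts are read against all genes, of which 6.50% passed as higher, 5.25% passed as lower and 28.2% had an unadjusted p under 0.05. Of 19 measured FoxO target genes, 4 passed as higher and 0 as lower in limma (8 and 2 at an unadjusted p under 0.05), with a median of 0.20. They were the insulin receptor substrate gene Irs2 at 1.33, Foxo1 at 0.80, the pseudokinase gene Trib1 at 1.03 and the thioredoxin inhibitor gene Txnip at 0.80. Ccng2 and Sesn1, members of both lists, had values of -0.28 and 0.27 and did not pass. Of 20 ATF4 and amino acid stress genes, which include Sesn2, 3 passed as higher and 0 as lower (6 and 0 at an unadjusted p under 0.05): the lipoprotein receptor gene Vldlr at 0.78, the proline synthesis gene Aldh18a1 at 0.71 and the serine synthesis gene Phgdh at 0.67. Of 31 immediate early genes 1 passed as higher, the transcription factor gene Maff at 0.37, and 0 as lower (11 and 3 at an unadjusted p under 0.05). Without vector 1, 6 immediate early genes were higher and 1 lower, and without miR-34a 3 none of these 3 lists had a gene past the threshold.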

How the data were processed

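The authors deposited 1 table of intensities on a linear scale for 22690 probe sets. How they were summarised and normalized is not given in the sources used here. Array medians lay close together, so values were taken as scaled, and no detection calls were used. Groups and replicate numbers came from the sample titles. Gene symbols came from the platform's annotation and were brought up to date by Entrez identifier from RefSeq's GRCm38.p6 gene table. Of the probe sets, 20351 were matched by identifier and 29 kept as annotated. Left out were 691 with several symbols, 1555 with none and 64 controls. For every gene the probe set of highest mean log2 value was kept, among those carrying its symbol alone (12393 genes from 20380 probe sets).

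The scale was log2(intensity + 16), on which the changes of dim genes come out too small, and the fit was made by limma 3.58.1 (lmFit, eBayes; R 4.3.3). Tests were two-sided and used all 6 arrays without a block, and p-values were adjusted by Benjamini-Hochberg across the 12393 genes, with a threshold of 0.05. Changes are miR-34a minus vector. Precision is limited by having 3 arrays a group. The script was first tested on simulated data. Members, lists and tests were chosen with earlier results of these data known. Full values are given for members past the threshold, Cdkn1a, Mdm2 and Mdm4, and members with separate groups and a change of at least 0.5. Other members are given more briefly, and up to 4 called genes per process list by smallest p. Cdkn2a, not called with all arrays, is given besides for the size of its change. The marker lists of B and plasma cells, endothelium, pericytes and skeletal muscle had 0 genes higher and 1 lower, Abcc9 of the pericyte list, past the threshold (5 higher and 2 lower at an unadjusted p under 0.05). Skeletal muscle markers (12 genes) summed to 2656 to 9397 in miR-34a and 2460 to 3317 in vector arrays. Their changes were above 0 in 12 of 12, against 54.3% of all genes. The part of muscle in the p53 target values was not tested. Alternatives were other scalings, pseudocounts, a filter on low genes, array weights, averaging a gene's probe sets, a robust trend of the variance, a block for replicate number, and leaving out each array; those for further probe sets and other lists were chosen after seeing the data. Figures used matplotlib 3.10.9 in Python 3.11.15.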

Additional observations from a re-analysis of the deposited data

How the results depend on the processing

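Under 15 alternatives, 23 of the 35 p53 target genes kept the direction of their change. With 1 array left out in turn, members called higher numbered 0 to 3, members called lower 0 to 2, and the members' median change ran from 0.048 to 0.080. The fits without miR-34a 1, 2 or 3 called 0 members in either direction (limma; 4, 3 and 5 higher and 1, 1 and 2 lower at an unadjusted p under 0.05), and genes called over the whole table fell to between 98 and 303 higher, against 805 with all arrays. With the mean of all probe sets 2 members were higher and 3 lower (Ddb2, Xpc; Ccng1, Ccng2, Gadd45a), beside 6.05% and 5.86% of all genes. With a robust variance trend 2 were higher and 0 lower (2 lower at an unadjusted p under 0.05), since Gadd45a reached an adjusted p of 0.051, beside 6.94% and 5.69% of all genes. With array weights 5 were higher and 3 lower (14.3% and 8.57%), beside 15.5% and 10.6% of all genes. The median was 0.031 with quantile normalization, -0.014 with median centring, 0.044 with the dimmest genes left out and 0.020 with array weights, beside all-gene medians of -0.016, -0.071, 0.054 and 0.046. Over all genes, higher and lower calls numbered 805 and 651, 608 and 804 with quantile normalization and 451 and 992 with median centring, while Xpc and Gadd45a passed in all of these. The cause of these differences was not tested.

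The changes of 12 genes, none of which passed with all arrays, crossed 0. The change of Mdm4 was -0.091 with quantile normalization, -0.093 with median centring, -0.067 with the mean of probe sets and -0.14 with array weights. Ptprv was -0.022 and -0.051 under both scalings, and median centring gave Rprm -0.0075, Ercc5 -0.023 and Prkab1 -0.014. The mean of probe sets gave Gadd45b 0.15, Steap3 0.065 and Prkab1 -0.21, and array weights gave Ei24 0.012 and Gadd45g -0.17. Over the fits that left out 1 array, Mdm4 ran from -0.076 to 0.10, Steap3 from -0.13 to 0.075, Ercc5 from -0.017 to 0.13, Ptprv from -0.016 to 0.10, Cdkn1a from -0.41 to 0.0086, Perp from -0.50 to 0.043, Ei24 from -0.19 to 0.022, Gadd45g from -0.0008 to 1.12, Tob1 from -0.32 to 0.038 and Prkab1 from -0.020 to 0.25.

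The replicate numbers were not taken to pair the samples. Deviations of same-numbered samples correlated at -0.168, -0.094 and -0.081, and those of differently numbered samples at -0.049 to 0.137. With 3 arrays a group, these values cannot exclude a pairing. With the replicate block 1 member was higher and 1 lower, Gadd45a. The higher one rested on the change of Ddb2 (adjusted p = 0.0368), while the change of Xpc did not pass (adjusted p = 0.0641). Over all genes the block called 250 higher and 272 lower.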
